A study of Rattus norvegicus with 3 samples.

Results

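The mitochondrial ribosomal proteins are the nuclear-encoded proteins of the ribosome that works inside mitochondria. Members were all genes whose platform symbol starts with Mrpl (large subunit) or Mrps (small subunit) followed by a digit, taken from probe sets annotated with exactly 1 symbol, with the brightest probe set standing for a gene. This gave 71 genes of 14506 named on the platform, 44 of the large and 27 of the small subunit. The platform spells 3 of them in lower case (mrpl9, mrpl11 and mrpl24), and these were counted as members, which left 68 genes with a capital letter. Members were taken by symbol without a filter on their values, although the list was chosen with earlier results of these data known. All 71 lay above the limit of 5.72 (log2, the 30th percentile of mean level) that defined the 10154 compared genes of the series.

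Soleus, a slow postural muscle of the hind limb, was taken from rats aged 7 weeks of a strain labelled Brown, and every animal had received a summed dose of 50 mSv of radiation within 2 weeks. In group DN the animals were also denervated, in group TS they were also suspended by the tail, and group Ct had the irradiation alone. The RNA of 6 rats was pooled for each group and measured on 1 Affymetrix Rat Gene 1.0 ST array, so no spread between animals is known, no test could be made, and each difference describes a pair of pools. Rats without irradiation were not analysed here, and the labels do not say which nerve was cut or how. Myh7, the myosin heavy chain of slow fibres, was detected in every pool, with 13.06 in DN and 13.24 in TS, against 13.62 in Ct (log2).

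As background, the mitochondrial ribosome makes only the few proteins that mitochondrial DNA encodes, which are core subunits of the respiratory chain and of ATP synthase. Its RNA comes from mitochondrial DNA, whereas all of its proteins are encoded in the nucleus, made in the cytosol and imported. Many of them descend from bacterial ribosomal proteins and others are found only in mitochondria. In muscle, their genes are generally regarded as part of the programme that sets mitochondrial content, together with genes of the respiratory chain.

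The promoters of 4 members that were at least 1.5-fold lower in DN are shown because 1 of them is the member furthest below Ct and the other 3 hold different motifs known from genes of mitochondria and of ribosomes. Sequences are those of RefSeq (GRCr8) and run 5′ to 3′ from 250 bases before to 50 after the start of the gene. Capitals mark the match to a motif described further on. The mrpl11 window (chr1:211693557-211693856, plus strand) has no match. The Mrpl14 window (chr9:22811184-22811483, minus strand) matches the NRF-1 motif, the Mrpl48 window (chr1:164351327-164351626, minus strand) the ETS motif and the Mrpl46 window (chr1:142116981-142117280, minus strand) the YY1 motif.
mrpl11: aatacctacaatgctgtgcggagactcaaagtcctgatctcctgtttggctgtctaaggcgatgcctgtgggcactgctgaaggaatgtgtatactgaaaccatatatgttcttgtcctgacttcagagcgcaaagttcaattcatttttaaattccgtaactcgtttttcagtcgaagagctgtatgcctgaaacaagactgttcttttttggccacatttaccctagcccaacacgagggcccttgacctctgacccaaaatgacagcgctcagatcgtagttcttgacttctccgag
Mrpl14: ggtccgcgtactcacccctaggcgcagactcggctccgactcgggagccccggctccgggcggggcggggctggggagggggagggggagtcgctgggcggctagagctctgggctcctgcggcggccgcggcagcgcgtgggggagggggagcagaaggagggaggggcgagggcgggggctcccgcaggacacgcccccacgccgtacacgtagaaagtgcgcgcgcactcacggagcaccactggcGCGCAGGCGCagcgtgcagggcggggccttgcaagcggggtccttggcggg
Mrpl48: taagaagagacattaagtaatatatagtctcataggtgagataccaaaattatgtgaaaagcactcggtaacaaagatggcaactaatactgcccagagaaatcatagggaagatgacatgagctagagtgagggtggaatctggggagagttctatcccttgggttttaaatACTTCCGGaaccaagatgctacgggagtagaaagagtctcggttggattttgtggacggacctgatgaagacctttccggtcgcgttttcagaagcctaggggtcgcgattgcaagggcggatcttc
Mrpl46: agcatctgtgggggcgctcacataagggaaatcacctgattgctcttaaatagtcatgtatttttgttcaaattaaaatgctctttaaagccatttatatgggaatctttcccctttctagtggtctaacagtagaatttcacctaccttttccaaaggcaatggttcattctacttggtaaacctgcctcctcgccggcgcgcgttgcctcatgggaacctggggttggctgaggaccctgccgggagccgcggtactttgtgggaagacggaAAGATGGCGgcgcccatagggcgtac

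In denervated soleus, transcripts of the mitochondrial ribosome were lower than in Ct over most of the list, by amounts that were small for most genes. Of the 71 members, 59 read lower in DN than in Ct, 11 had exactly the same value on both arrays, and Mrpl23 alone was higher, by 0.14 (log2). Over all compared genes, 24.3% were lower in DN by any amount, 32.8% were higher and 42.9% had equal values. This background was not matched for level or for equal values. The median level in Ct was 9.17 for the members and 8.12 for the compared genes, and 15.5% of the members had equal values in DN and Ct. The median difference of the members was -0.18, with the middle 50% of genes from -0.44 to -0.04, against a median of 0.00 over all compared genes. In DN, 11 members, or 15.5%, were lower by 1.5-fold or more, where the background was 5.53% of all compared genes. None was at least 1.5-fold higher, against 4.93% of all compared genes.

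All 11 of these members belong to the large subunit. They were mrpl11, Mrpl14, Mrpl40, Mrpl19, Mrpl48, Mrpl47, Mrpl4, Mrpl12, Mrpl46, Mrpl54 and mrpl24, which is 25% of the 44 large subunit genes, and 0 of the 27 small subunit genes stood with them. The limit falls within a run of like values, since mrpl24 just inside it was lower by 1.52-fold and Mrpl38 just outside it by 1.49-fold. The median of DN minus Ct was -0.32 for the large and -0.13 for the small subunit, and 36 of 44 and 23 of 27 genes were below 0. At a smaller limit of 0.32 (log2), 22 large and 6 small subunit genes were lower, against 9.57% of all compared genes. The medians of both subunits stood closer, at a distance of -0.088 in place of -0.19, when the 3 genes in lower-case spelling were left out, and 9 large subunit genes then remained past 1.5-fold.

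**Figure D1:**
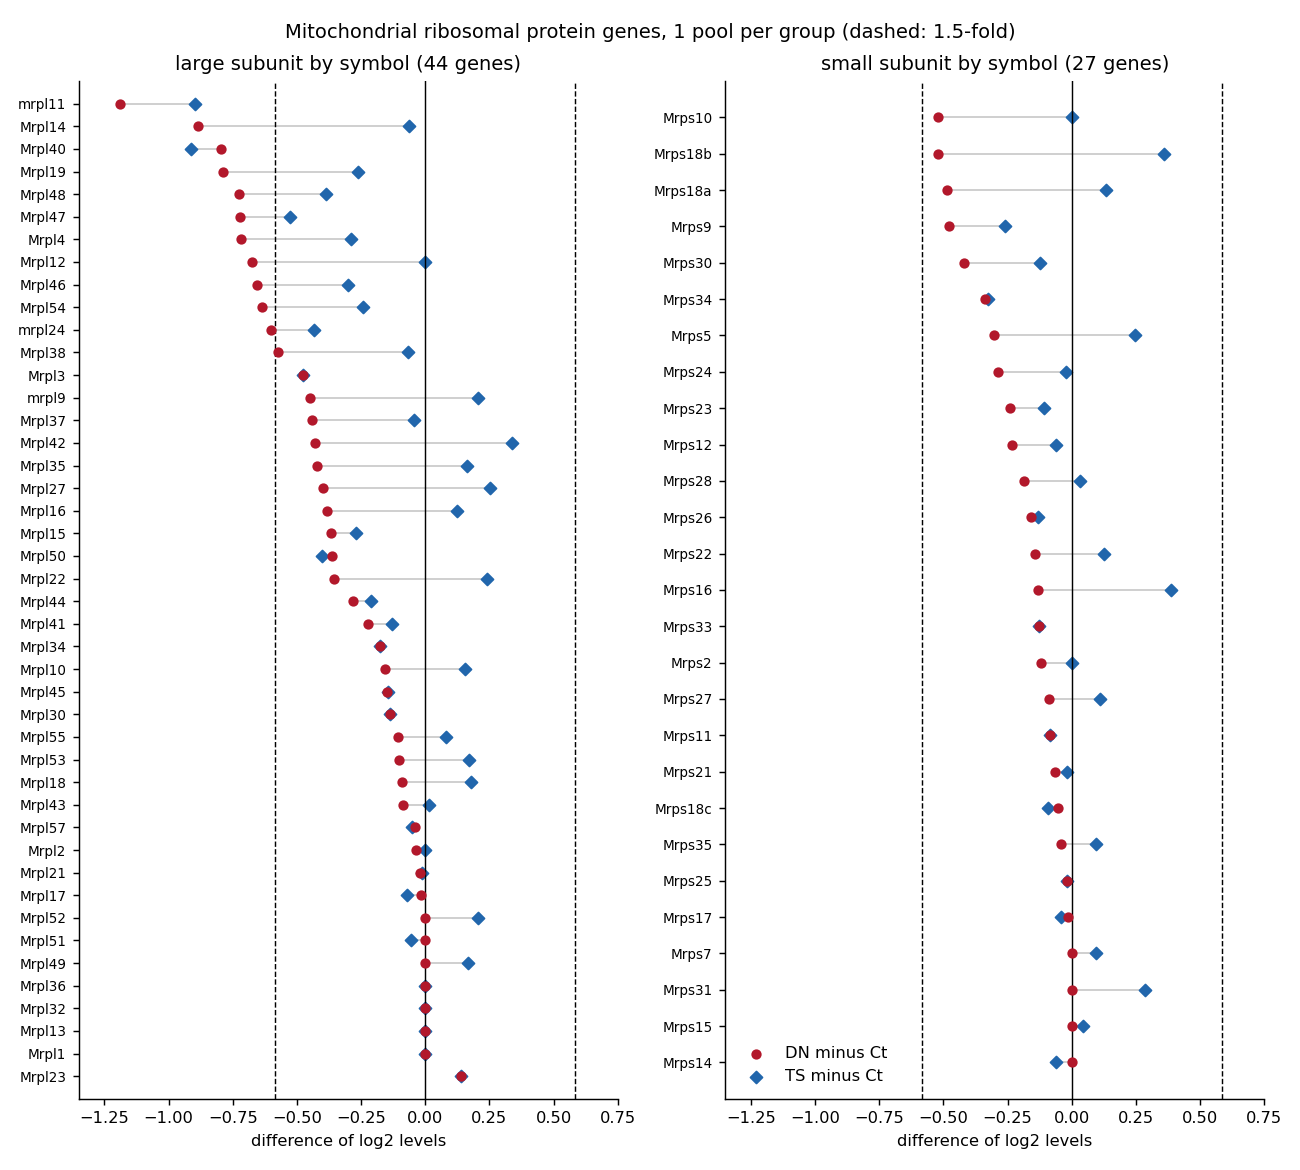
Difference of log2 levels for DN (circles) and TS (diamonds), each minus Ct, in every member, 1 pool per group, with dashed lines at 1.5-fold. The circles of 11 large subunit genes lie left of the dashed line and those of the small subunit end at -0.52, while the diamonds spread to both sides of 0.

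Among large subunit genes, those of the stalk that recruits elongation factors included the member furthest below Ct. The level of mrpl11, whose protein forms the base of the stalk, was 8.28 in DN and 8.57 in TS, against 9.47 in Ct (log2). Both pools therefore lay well below Ct, and DN minus Ct was -1.19, or 2.28-fold lower, the only member past 2-fold, where 2.24% of all compared genes were lower by as much. Mrpl12, the stalk protein that is also known to bind the mitochondrial RNA polymerase, read 8.52 in DN and 9.20 in TS, against 9.20 in Ct. Only the DN pool stood apart, at -0.68, and TS and Ct had equal values. Mrpl10, which anchors Mrpl12 to the ribosome, differed little, with 8.56 in DN and 8.88 in TS, against 8.72 in Ct.

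Mrpl38, Mrpl40, Mrpl46 and Mrpl48 encode 4 of the proteins of the central protuberance, the crown of the large subunit, and are mitochondria-specific. All 4 were lower in DN, with differences from -0.79 to -0.58, and 3 of them were past 1.5-fold. Mrpl40 read 9.19 in DN and 9.08 in TS, against 9.99 in Ct, so that both pools were low and TS the lowest. Mrpl46 read 9.65 in DN and 10.01 in TS, against 10.31 in Ct, and Mrpl48 read 8.74 in DN and 9.08 in TS, against 9.46 in Ct. In both genes the TS pool lay between DN and Ct. Mrpl38 read 8.18 in DN and 8.69 in TS, against 8.76 in Ct, with TS close to Ct. This grouping by place in the ribosome, and the others used here, were made after the values had been seen. They are not full lists of the proteins at a site, so the 4 genes do not describe the central protuberance as a whole.

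Mrpl14 and Mrpl19 encode proteins that, in the bacterial ribosome, lie side by side at the face that meets the small subunit. Mrpl14 read 7.07 in DN and 7.89 in TS, against 7.96 in Ct, and was 1.85-fold lower in DN. Mrpl19 read 8.23 in DN and 8.76 in TS, against 9.02 in Ct, and was 1.73-fold lower in DN. In both genes DN was the lowest array, and TS lay nearer to Ct than to DN.

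**Figure D2:**
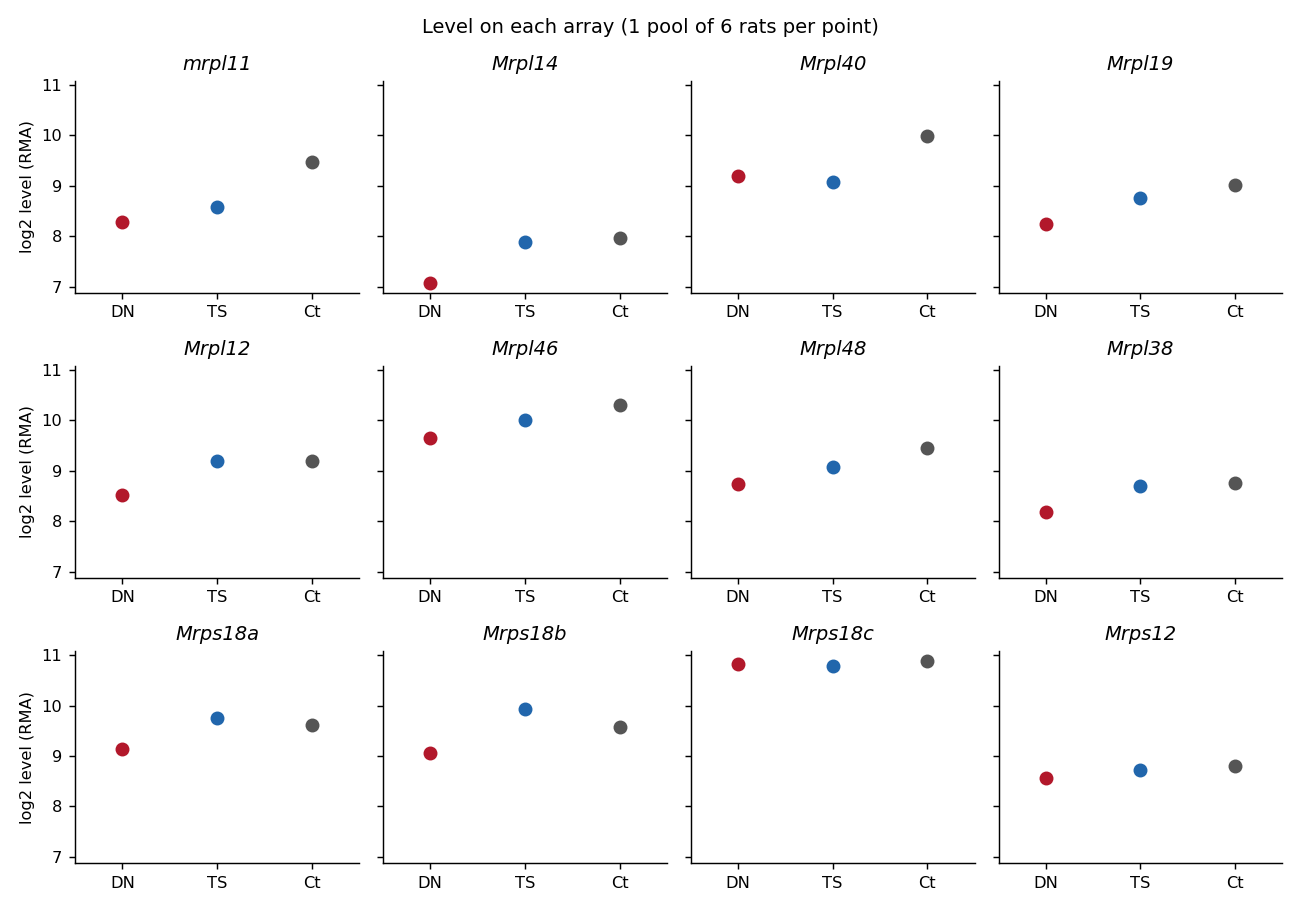
Level (log2, RMA) of 12 members on the DN, TS and Ct arrays, 1 point per pool of 6 rats. DN was the lowest array for 10 of them. In Mrpl40 and Mrps18c TS was lowest, and in Mrpl12 TS and Ct coincide. The 12 include members named for low values in DN, so this count does not describe the list. Among all 71 members DN was lowest in 67.6%, against 19.4% of all compared genes. With arrays centred on the compared genes these shares were 54.9% and 25.4%. Levels of different genes come from different probes and are not to be set against each other.

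Around the exit of the tunnel through which the new protein leaves, the members were mixed. Mrpl47 and mrpl24, relatives of bacterial proteins at this site, were lower in DN at -0.72 and -0.60. Mrpl22 stood at -0.35 and Mrpl44, which has an RNase III-like fold, at -0.28. Mrpl45, which ties the ribosome to the inner membrane, read 9.89 in DN and 9.90 in TS, against 10.05 in Ct, a small difference in both pools. Mrpl17 was at -0.02, and Mrpl23, the single member above Ct, read 10.23 in DN and in TS, against 10.09 in Ct.

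Further large subunit genes past 1.5-fold in DN were Mrpl4 and Mrpl54. Mrpl4, a relative of a bacterial protein of the tunnel wall, read 9.53 in DN and 9.96 in TS, against 10.25 in Ct. Mrpl54, a mitochondria-specific protein, read 10.52 in DN and 10.92 in TS, against 11.16 in Ct. Both showed the same order, with DN lowest and TS between DN and Ct. Mrpl3, a relative of a bacterial protein near the catalytic centre, had 9.47 in DN and in TS, against 9.95 in Ct. At the other end, Mrpl1, Mrpl13, Mrpl32 and Mrpl36 had exactly the same value on all 3 arrays, and Mrpl49, Mrpl51 and Mrpl52 were equal in DN and Ct. The remaining large subunit genes (mrpl9, Mrpl37, Mrpl42, Mrpl35, Mrpl27, Mrpl41, Mrpl16, Mrpl15, Mrpl50, Mrpl34, Mrpl30, Mrpl55, Mrpl53, Mrpl18, Mrpl43, Mrpl57, Mrpl2 and Mrpl21) lay from -0.45 to -0.02 in DN. The median polish within RMA can return equal values when arrays are few, so equal values do not show that a transcript did not differ.

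The small subunit had no member past 1.5-fold in either comparison with Ct. Its lowest in DN were Mrps10 (-0.52), Mrps18b (-0.52), Mrps18a (-0.49), Mrps9 (-0.48) and Mrps30 (-0.42). Mrps10 read 7.82 in DN and 8.34 in TS, against 8.34 in Ct, and Mrps9 read 8.68 in DN and 8.90 in TS, against 9.16 in Ct. Mrps12, the protein of the decoding centre, differed less, with 8.56 in DN and 8.73 in TS, against 8.80 in Ct. Mrps22 stood at -0.14 and Mrps27, an RNA-binding protein of the pentatricopeptide repeat type, at -0.09, while Mrps7, Mrps14, Mrps15 and Mrps31 had equal values in DN and Ct. The other small subunit genes apart from Mrps18c (Mrps5, Mrps24, Mrps23, Mrps28, Mrps26, Mrps16, Mrps33, Mrps34, Mrps2, Mrps11, Mrps21, Mrps35, Mrps25 and Mrps17) lay from -0.34 to -0.02 in DN.

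By symbol and by structure the subunits are not the same. Mrps18a and Mrps30 carry small subunit names, but their proteins are known to sit in the large subunit. Counted there, the median of DN minus Ct was -0.36 over 46 large and -0.13 over 25 small subunit genes. Members related to bacterial ribosomal proteins and mitochondria-specific members had close medians, -0.17 over 42 genes and -0.16 over 27 genes; 2 members were in neither class. Within the large subunit by structure these medians were -0.35 over 27 genes and -0.32 over 18 genes, and 7 and 4 genes were at least 1.5-fold lower.

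Mammals have 3 genes for relatives of the bacterial protein S18, and these differed from each other. Mrps18b read 9.05 in DN and 9.93 in TS, against 9.57 in Ct. Mrps18a read 9.13 in DN and 9.75 in TS, against 9.62 in Ct. In both, DN lay below Ct and TS above it. Mrps18c read 10.83 in DN and 10.79 in TS, against 10.89 in Ct, and its arrays lay within 0.1 of each other.

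In suspended soleus the members lay on both sides of Ct. Of 71 genes, 38 were lower, 25 were higher and 8 were equal, where 22.7% of all compared genes were lower and 52.6% were higher by any amount. Equal values were found for 24.7% of all compared genes. The median of TS minus Ct was -0.018, with -0.047 for the large and -0.017 for the small subunit, and the mean of the small subunit had the opposite sign, at 0.016. Lower by 1.5-fold or more were Mrpl40 at -0.91 and mrpl11 at -0.90, or 2.82% of the members, a share near the background of 2.68%. None was lower by 2-fold, against 0.689% of all compared genes, and 8 were lower by 0.32 or more, against 6.62%. The next were Mrpl47 (-0.53), Mrpl3 (-0.48) and mrpl24 (-0.43), and in the small subunit Mrps34 (-0.33), Mrps9 (-0.26), Mrps26 (-0.13), Mrps33 (-0.13) and Mrps30 (-0.12). None was at least 1.5-fold higher, against 5.89% of all compared genes. The highest were Mrps16 (0.39), Mrps18b (0.36), Mrpl42 (0.34), Mrps31 (0.29), Mrpl27 (0.25), Mrps5 (0.25) and Mrpl22 (0.24).

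The scale of the TS array bears on these values. The median over the compared genes was 8.25 in TS, against 8.12 in Ct, a shift of 0.13, while the median difference gene by gene was 0.02. With each array centred on that median, TS minus Ct of the members had a median of -0.15, 55 members were lower and 16 higher, and 65.1% of all compared genes were lower. The genes past 1.5-fold were then 4 (5.63% of the members, against 3.94% of all compared genes), all of the large subunit: Mrpl40, mrpl11, Mrpl47 and Mrpl3. Of the highest members in TS, Mrps16, Mrps18b, Mrpl42, Mrps31, Mrpl27, Mrps5 and Mrpl22 stayed above 0, and the difference of Mrps18a came to 0.00. For Mrpl42 this holds for the brighter probe set alone, since the other gave -1.14 before centring. For DN the shift was 0.01, which moves the equal values below 0. With that centring 70 of 71 members were lower in DN than in Ct, against 68.1% of all compared genes, and the same count of 11 was at least 1.5-fold lower, against 5.57%.

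**Figure D3:**
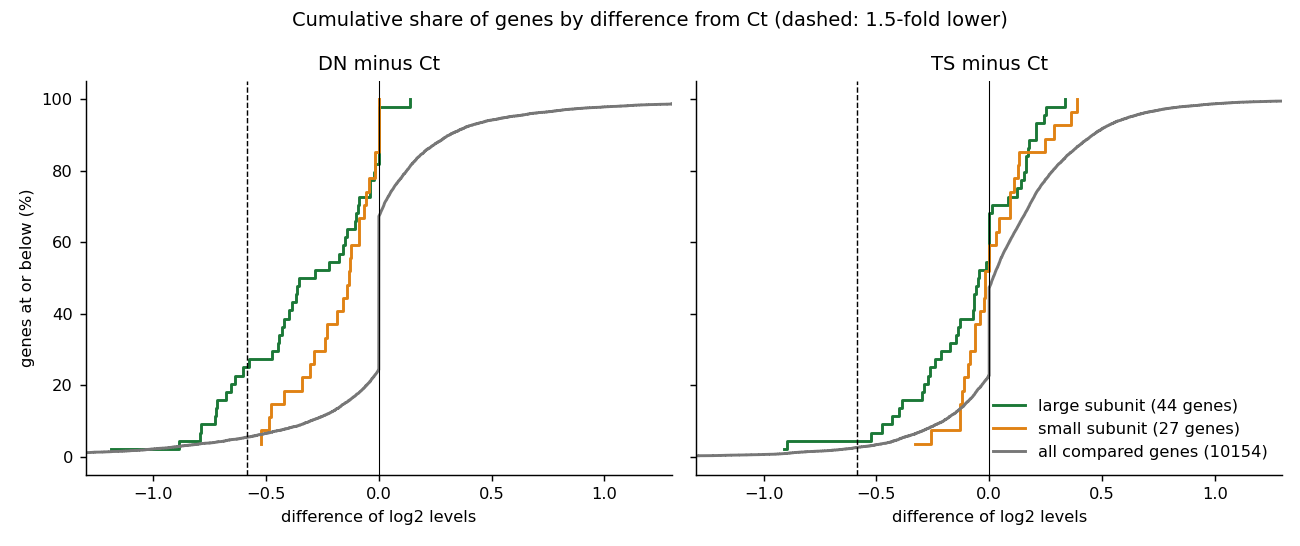
Cumulative share of genes (%) by difference of log2 levels from Ct, for 44 large subunit genes, 27 small subunit genes and all 10154 compared genes. In DN both subunits run left of all compared genes between -0.5 and 0, and the large subunit reaches 25% at the dashed 1.5-fold line; in TS the curves of the subunits lie closer to it.

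Set directly against each other, DN was below TS in 53 of 71 members, above it in 8 and equal in 10, where 50.3% of all compared genes were lower, 23.3% higher and 26.3% equal. The median of DN minus TS was -0.17, against -0.0028 over all compared genes. With arrays centred on the compared genes it was -0.042, with 39 members (54.9%) lower and 32 higher, where 34.1% of all compared genes were lower and 65.9% higher. By 1.5-fold or more, 8 members were lower in DN, 11.3% of the list, against 5.93% of all compared genes. None was higher by as much, against 3.2% of all compared genes. With that centring 3 stayed lower, Mrps18b, Mrpl14 and Mrpl42 (by its brighter probe set alone), which is 4.23% of the members and near the 3.76% of all compared genes. At the limit of 0.32, 20 members were lower, against 16.8% of all compared genes, and at 2-fold none was, against 1.74%. The 8 members were Mrps18b (-0.88), Mrpl14 (-0.82), Mrpl42 (-0.77), Mrpl12 (-0.68), mrpl9 (-0.65), Mrpl27 (-0.65), Mrps18a (-0.62) and Mrpl22 (-0.60). The highest of DN minus TS were Mrpl40 (0.12), Mrps14 (0.06), Mrpl51 (0.06) and Mrpl17 (0.05). The comparisons share arrays. DN was the lowest of the 3 arrays in 48 members (67.6%, against 19.4% of all compared genes) and TS in 8 (11.3%, against 12.6%). In 19 members (26.8%, against 9.17%) DN lay below and TS above Ct. With that centring DN was lowest in 39 members (54.9%, against 25.4%), TS in 31 (43.7%, against 55.4%), and 15 members (21.1%, against 15.8%) had DN below and TS above Ct.

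More than 1 probe set was present for 4 members, and they differed in how well the sets matched. The other probe set of Mrpl40 gave -0.83 in DN and -0.98 in TS relative to Ct. That of Mrpl41 gave the same differences as the set used, -0.22 and -0.13. Both sets of Mrpl40 had an identical value in DN (9.19462), as had both of Mrpl41 (9.18309). Whether these sets share probes was not examined, so their match is not taken as an independent measurement. The further set of Mrps11 gave -0.16 and -0.15, where the set used gave -0.09 in both. Mrpl42 had opposite directions in TS. The set used read 10.81 in DN and 11.58 in TS, against 11.24 in Ct, whereas the dimmer set read 8.12 in DN and 7.57 in TS, against 8.71 in Ct. Its place among the highest members in TS and the lowest of DN minus TS holds for the brighter set alone. Over 401 compared genes with a further set, the median disagreement was 0.03 in DN minus Ct and 0.11 in TS minus Ct.

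Other mitoribosomal proteins carry unrelated symbols, and 5 of these were measured. Ptcd3, the small subunit protein mS39, read 8.76 in DN and 9.20 in TS, against 9.64 in Ct, and was the only one past 1.5-fold in DN (-0.88). Gadd45gip1, a large subunit protein, was at -0.34 in DN, Dap3, a GTP-binding small subunit protein, at -0.27, Chchd1 at -0.07 and Aurkaip1 at 0.00. With Ptcd3, a small subunit protein did lie past the limit in DN, outside the genes named Mrps.

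The genes for factors that build and serve this ribosome were counted at the same limit of 1.5-fold, past which 5.53% of all compared genes were lower and 4.93% higher in DN. Of 21 assembly and ribosomal RNA modification factors, 2 were at least 1.5-fold lower in DN, the RNA methyltransferase Nsun4 (-0.65) and the RNA-binding Fastkd2 (-0.59), with a median of -0.030. In TS none of the 21 was past 1.5-fold, and Rpusd4, a pseudouridine synthase, stood at 0.37. Of 11 translation factors, 9 were below Ct in DN, where 24.3% of all compared genes were lower by any amount. At least 1.5-fold lower in DN were 4, and the median was -0.23. In TS 7 of the 11 were below Ct, against 22.7% of all compared genes. None was past 1.5-fold there, and the median was -0.16. Lrpprc, which stabilises mitochondrial messenger RNA, read 9.88 in DN and 10.39 in TS, against 10.74 in Ct. Tufm, the elongation factor EF-Tu, read 9.18 in DN and 9.47 in TS, against 9.80 in Ct. The others past 1.5-fold in DN were Guf1 (-0.61 in DN, -0.52 in TS) and Taco1 (-0.61 in DN, -0.17 in TS). Taco1 is a translational activator of cytochrome c oxidase subunit I.

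Of 13 genes for charging mitochondrial transfer RNA, Aars2 (-0.76) and Qrsl1 (-0.69) were at least 1.5-fold lower in DN, Yars2 stood at -0.50, and 5 had equal values in DN and Ct. For this list and those that follow, the shares of all compared genes in DN were again 5.53% lower and 4.93% higher. Of 11 genes for transcription and maintenance of mitochondrial DNA, none was past 1.5-fold in DN or in TS, and the median was 0.00 in both. Tfam, which packages that DNA, read 9.96 in DN and 9.68 in TS, against 9.90 in Ct. The largest differences of this group were in TS, for Top1mt (0.51), Twnk (0.44) and Polg (0.34). Among 25 protein import genes, DN had 4 lower and 1 higher past 1.5-fold, with a median of -0.14. Samm50, which inserts outer membrane proteins, stood at -0.72, the inner membrane channel Timm23 at -0.68 and Tomm5 at 0.80.

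**Figure D4:**
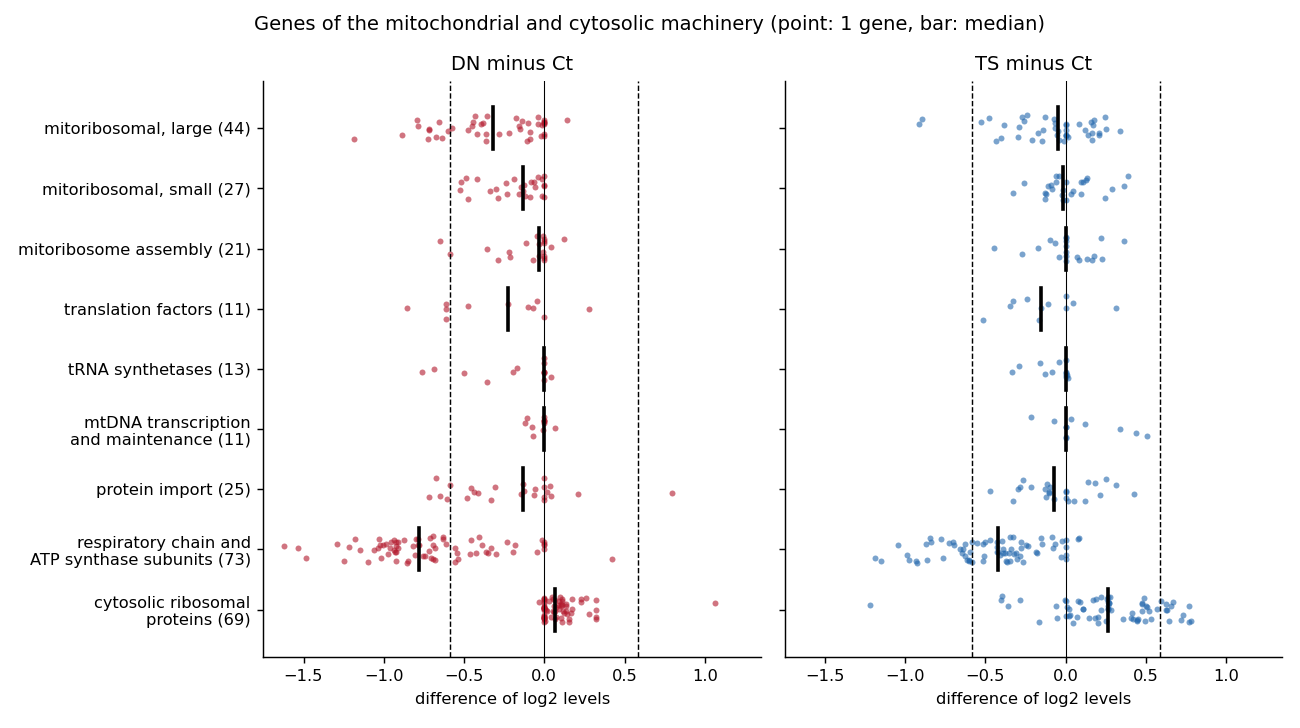
Difference of log2 levels, DN or TS minus Ct, in genes of mitochondrial and cytosolic protein synthesis, import and respiration, with the number of genes in brackets, a point per gene and a bar at the median. The bar of the large subunit in DN (-0.32) lies between 0 and that of the genes labelled respiratory chain and ATP synthase subunits (-0.78). Those genes were taken by symbol, and not all encode subunits. The bars of the cytosolic ribosomal proteins lie above 0.

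For scale, 73 genes were taken by symbols of the respiratory chain and ATP synthase, and not all of them encode subunits. Their median was -0.78 in DN and -0.42 in TS. At least 1.5-fold lower were 50 and 25 of them, against 5.53% and 2.68% of all compared genes. The 69 cytosolic ribosomal protein genes had medians of 0.07 in DN and 0.26 in TS, with 0 and 1 at least 1.5-fold lower. At least 1.5-fold higher were 1 in DN and 12 in TS, against 4.93% and 5.89% of all compared genes. Values of both groups were not centred, and the median over the compared genes was 0.13 higher in TS than in Ct. The median of the mitoribosomal genes lay between those of these groups in DN and in TS. With 1 array per group, no test of these differences between groups of genes was made. Of 9 regulators of mitochondrial genes, Perm1 (-4.32), Esrra (-0.90) and Ppargc1b (-0.61) were at least 1.5-fold lower in DN, against 5.53% of all compared genes. In TS, 5 of the 9 lay below Ct and 3 above it, against 22.7% and 52.6% of all compared genes by any amount. By 1.5-fold or more, 1 was lower and 1 higher, against 2.68% and 5.89%. Perm1 was again the lowest, at -2.20. Nrf1 and Gabpa, which encode factors known to bind promoters of genes for mitochondrial proteins, had equal values in DN and Ct, and Nrf1 was at 0.34 in TS. Myc stood at 0.32 in DN and 1.07 in TS.

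Markers of fibre and cell types also differed between the pools, and their part in the members' values was not tested. All 8 slow-fibre markers were lower in DN and in TS, where 24.3% and 22.7% of all compared genes were lower by any amount. Their summed linear level was 50690 in DN and 59577 in TS, against 75079 in Ct. Of 9 fast-fibre markers, 7 in DN and 8 in TS were at least 1.5-fold higher, against 4.93% and 5.89% of all compared genes. Their sum was 31203 in DN and 41883 in TS, against 13837 in Ct. Marker counts and sums are on the deposited scale, without centring of the arrays. Endothelial markers (7 genes) summed to 4921 in DN and 5531 in TS, against 6508 in Ct. Macrophage markers (9 genes) summed to 5857 in DN and 7419 in TS, against 5212 in Ct, and adipocyte markers (8 genes) to 6259 in DN and 4642 in TS, against 3869 in Ct. Such sums rest mostly on the brightest probe sets, and single markers went the other way. These were Fabp4 among the adipocyte markers (-0.02 in DN, -0.43 in TS) and, in DN alone, Cd14 (-0.14, macrophage) and Atp2a1 (-0.43, fast fibre). No marker of these lists was below the limit of 5.72. In RNA of whole muscle, fewer cells of a type and less RNA per cell cannot be told apart.

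Promoter windows of 300 bases were found for 57 of the 71 members. They were searched on both strands for 5 motifs, NRF-1 (GCGCA and GCGC with any 1 base between them), ETS (CCGGAAGT), YY1 (AAGATGGCG), ERR (TCAAGGTCA) and the E-box (CACGTG). These are exact strings, narrower than what the factors are known to bind, and in no member did matches of different motifs overlap. Of the 57 windows, 17.5% held the NRF-1 motif, 15.8% the YY1 motif and 14% the ETS motif. In the 33469 windows of all genes these shares were 4.25%, 1.73% and 3.81%, and in the 21851 windows of protein-coding genes 5.67%, 2.07% and 4.77%. The E-box was in 12.3% of members' windows, against 6.42% of all windows and 7.02% of those of protein-coding genes. The ERR motif was in 0 of the members' windows and in 0.433% of all windows. The median share of G and C was 56.0% in the members, against 55.0% in protein-coding genes.

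Motif matches were also counted by the members' difference in DN. Of the 10 members with a window that were lower by 1.5-fold or more, 1 held the NRF-1 motif (Mrpl14), 1 the ETS motif (Mrpl48), 1 the YY1 motif (Mrpl46) and 3 the E-box (Mrpl4, Mrpl54 and mrpl24). Of the other 47 members, 9 held the NRF-1 motif, 7 the ETS motif, 8 the YY1 motif and 4 the E-box. In 28 of 57 windows at least 1 motif was found. A match is a string of letters and not a bound site, and no binding was measured here.

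**Figure D5:**
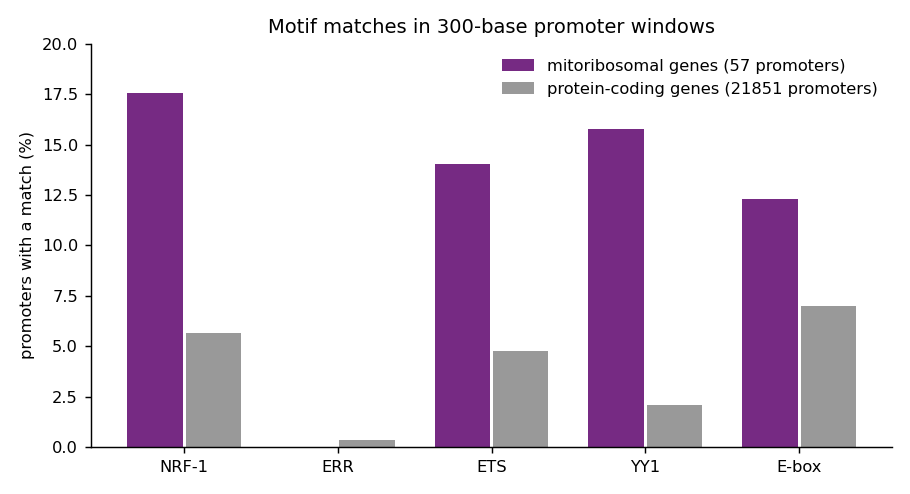
Share of promoter windows (%) that hold each of 5 motifs, for 57 mitoribosomal genes and 21851 protein-coding genes. The bars of the members are higher for NRF-1 (17.5%), ETS (14%), YY1 (15.8%) and the E-box (12.3%), and no member window holds the ERR motif.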

How the data were processed

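Pools of soleus RNA from 6 rats were hybridised to 1 array per group, with groups read from the sample labels. The authors made RMA values with Affymetrix Expression Console in a core-exon analysis, per the labels' protocols and the submitters' processing notes. These were deposited without a stated base and were read as log2 values; they run from 1.77 to 13.99, and folds rest on base 2. No version, annotation or genome build is given in the sources used here.

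The platform annotation named 15310 of 29170 probe sets with 1 symbol, 75 of them with a member's; 1 set shared by Mrpl20 and Ankrd65 was left out. All 71 members were found in the RefSeq gene table of GRCr8, used for names; promoter sequences came from RefSeq's GRCr8 table. For each gene the brightest probe set by the mean of 3 arrays was used. Differences of log2 values were counted at 1.5-fold, and 10154 genes at or above the 30th percentile served as background. The number of arrays limits the precision, and no p-value was computed.

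The members, gene lists and subunit rules were chosen with earlier results of these data known. The named members were, per subunit and comparison with Ct, the 5 lowest and 3 highest, the 4 lowest and highest of DN minus TS, every member past 1.5-fold, and 14 named in every case, of which Mrps36 was not analysed here; other lists gave up to 3. Other members and further genes of the other lists were named after their values were seen. The calculation was run on simulated data with a known shift, which checks the arithmetic and says nothing about these results. Alternatives were other scalings, another choice of probe set, other limits, means, leaving out equal values and subunits by structure. Tables were handled with pandas 2.3.3 and numpy 2.4.6 under Python 3.11.15, the loess trend with statsmodels 0.14.6, and figures with matplotlib 3.10.9.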

Additional observations from a re-analysis of the deposited data

How the results depend on the processing

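The medians of all members and of each subunit in DN minus Ct stayed below 0 under every alternative run, from -0.29 to -0.16 for all members, -0.38 to -0.22 for the large and -0.19 to -0.12 for the small subunit, and so did those of DN minus TS. For DN minus Ct, the mean was -0.28 over all members and -0.19 for the small subunit (subunits -0.14 apart). Leaving out equal values gave -0.29, -0.38 for the large subunit and -0.23 between subunits. The large subunit was at -0.28 with 32 added on the linear scale, -0.35 above the 50th percentile, -0.28 with only genes of 1 probe set, -0.22 with only capital-letter symbols and -0.36 by structure, and the distance between subunits in the last 4 settings was -0.22, -0.15, -0.088 and -0.23. No alternative other than the limit of 0.32 (log2; 6 genes) brought a small subunit gene past the limit in DN minus Ct. Of the 11 genes past 1.5-fold in DN, all but mrpl24 (-0.58 in 1 setting) stayed so under 6 scalings and probe set rules. Some of these settings could hardly move the calls. The mean over probe sets could change Mrpl40 alone, because the others have 1 probe set. Centring shifted DN minus Ct by only 0.0073 (compared genes) or 0.014 (all probe sets).

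Counts followed the limit. At 0.32 (log2), 28 members were lower in DN minus Ct (22 large), 8 in TS minus Ct (7 large and 1 small) and 20 in DN minus TS (15 large and 5 small); at 2-fold, 1 in DN minus Ct (large) and 0 in the other comparisons, which have no test and so no p-value. Centring on the compared genes, chosen after seeing the data as was the capital-letter setting, moved TS minus Ct to -0.15 for all members, -0.18 for the large and -0.15 for the small subunit, with 4 lower (4 large), and DN minus TS to -0.042, -0.052 and -0.0090, with 3 lower (2 large and 1 small). For TS minus Ct, 1 gene was lower, a large one, with only genes of 1 probe set and with only capital-letter symbols. For DN minus TS, 1 small subunit gene was lower after removal of a loess trend and after quantile normalization. The mean of the small subunit in TS was 0.016. No paired analysis was possible because each group has 1 array. Depth does not apply to arrays; all members lay above the limit on low values.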
